A study of Homo sapiens with 9 samples.

Results

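ATF4 is the transcription factor that carries out the integrated stress response, and the genes described here are ATF4 itself, its partner or target genes DDIT3, TRIB3, CHAC1, SESN2 and ASNS, and the serine and glycine enzymes PHGDH, PSAT1, PSPH and SHMT2. These 10 genes, and the related lists below, were chosen by name with earlier results of these data known. All 10 genes were looked up by Ensembl identifier and found among the 60676 identifiers counted. They were measured by poly(A) RNA sequencing in RD, a long-established cell line from a human embryonal rhabdomyosarcoma (a tumour of muscle-like cells), with 3 libraries in each of 3 groups. One group carried a hairpin without a target (shNT), and the others carried shTRPS1#1 or shTRPS1#2, hairpins against TRPS1, a zinc finger factor that acts mainly as a repressor of transcription. Every group, the control included, was kept in 1 µM doxycycline, first for 2 days in growth medium (10% fetal bovine serum) and afterwards for 10 days in differentiation medium (2% horse serum). All libraries come from this single cell line. Whether the 3 libraries of a group are separate cultures is not stated in the labels, and the p-values cover only their spread, possibly a technical one. The study asks how TRPS1 bears on the muscle differentiation of this tumour.

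In the integrated stress response, kinases that sense misfolded protein, uncharged tRNA, haem shortage or viral RNA phosphorylate the translation factor eIF2. General translation then slows while ATF4 mRNA is translated more, so ATF4 is controlled largely at translation and its mRNA level is only part of its activity. ATF4 binds composite C/EBP-ATF sites and raises genes for amino acid uptake, tRNA charging and the synthesis of serine, glycine and asparagine. PHGDH, PSAT1 and PSPH are the successive enzymes that make serine from a glycolytic intermediate, and SHMT2 splits serine into glycine and a one-carbon unit inside mitochondria, which feeds nucleotide synthesis in dividing cells.

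The libraries held 21965744 to 23289062 counts each. TRPS1 was at 76.5, 70.0 and 74.1 CPM (counts scaled to library size with TMM factors) with shNT, at 55.4, 61.7 and 56.3 CPM with shTRPS1#1, and at 56.4, 59.0 and 56.8 CPM with shTRPS1#2, so every knockdown library lay below every control library. The log2 fold changes were -0.35 ± 0.04 and -0.36 ± 0.04 (SE), and the difference between the hairpins was -0.01 (approximate 95% interval -0.10 to 0.08). Of 10 skeletal muscle markers, 9 were expressed well enough to test and 9 rose with shTRPS1#1 and 7 with shTRPS1#2, while MYF6 stayed at 0.220 to 0.322 CPM on average per group. Over all genes tested, 7.1% rose with shTRPS1#1 and 9.01% with shTRPS1#2. Between the hairpins, 5 of the 9 muscle markers were lower with shTRPS1#2 and 0 higher, against 10.7% and 8.9% of all genes. These 5 became 3 without replicate 3 of either hairpin, and 2 when a log2 difference of at least 0.2 was required. The summed level of 5 epithelial markers was at most 0.525 CPM and that of 5 immune markers at most 0.721 CPM in any library, and of 5 endothelial markers, which summed to 4.2 to 6.75 CPM, only TEK passed the filter on low counts. TEK rose with shTRPS1#2 (0.43 ± 0.12, edgeR adjusted p = 0.00718), from 4.30 to 5.79 CPM, and its part in the results was not tested.

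More of the ATF4 and serine genes were called between the 2 hairpins than between either hairpin and shNT. In bulk RNA, fewer cells with a transcript and less of it per cell cannot be told apart. With shTRPS1#1, 3 of the 10 genes rose and 0 fell (PHGDH, CHAC1 and PSAT1), and with shTRPS1#2, 0 rose and 2 fell (PHGDH and SHMT2). Calls were made with edgeR's quasi-likelihood test on 17014 genes, with an adjusted p (Benjamini-Hochberg) under 0.05. Of all these genes, 13.4% were called with shTRPS1#1 (7.1% higher and 6.33% lower) and 18.9% with shTRPS1#2 (9.01% higher and 9.87% lower). The counts of 3 and 2 of 10 are therefore of the order of the background. The median log2 fold change of the 10 genes was 0.10 with shTRPS1#1 and -0.09 with shTRPS1#2, against 0.001 and -0.006 over all genes tested. Compared directly, 7 of the 10 genes were lower with shTRPS1#2 than with shTRPS1#1 and 0 were higher, against 19.6% of all genes called (8.9% higher and 10.7% lower), and the median difference was -0.23 against 0.0004 over all genes. The count of 7 dropped to 4 without shTRPS1#1 replicate 3 and to 4 without shTRPS1#2 replicate 3, as ATF4, SESN2 and ASNS lost their calls. PHGDH, PSAT1, SHMT2 and CHAC1 were called in the direct comparison under each of the 17 alternatives run. Both comparisons with shNT share the same 3 control libraries, and only the direct comparison tests the difference between the hairpins.

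**Figure D1:**
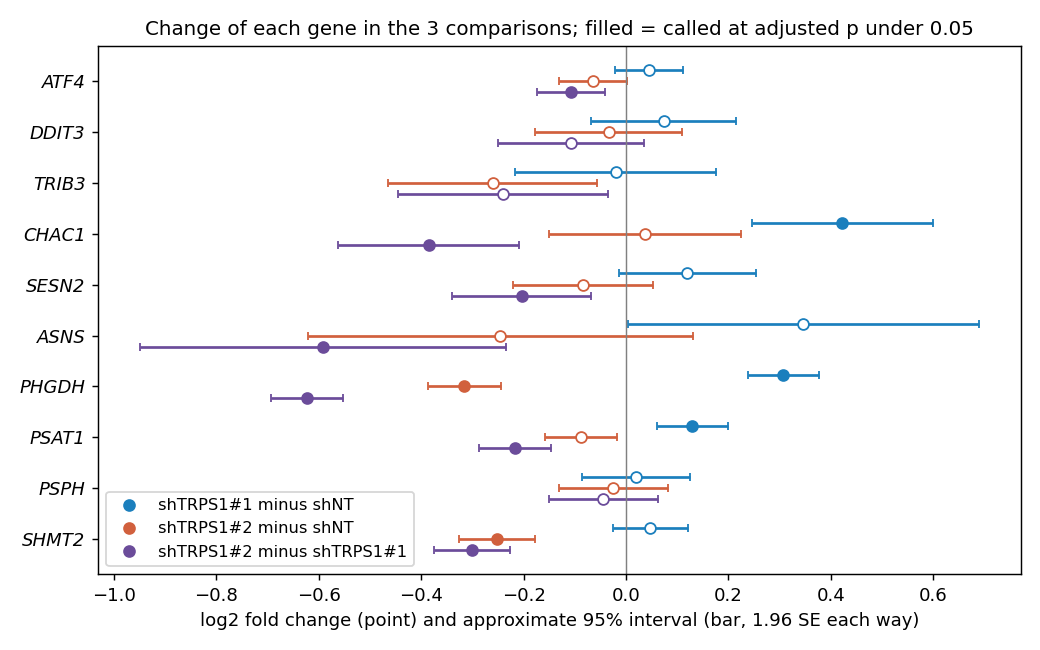
Log2 fold change of each gene (horizontal axis) in the 3 comparisons, with bars for the approximate 95% interval and filled points for genes called at an adjusted p under 0.05. In the direct comparison (purple) all 10 points lie below 0, and PHGDH is the only gene called in all 3 comparisons.

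Per counted gene length, the genes spanned a wide range in the control cells. On the deposited RPKM scale, which divides by gene length, ATF4 was highest at 81.8 ± 2.44 RPKM (SD, n = 3), followed by PSAT1 at 59.5 ± 1.5, SHMT2 at 31.4 ± 1.16 and PHGDH at 21.1 ± 0.65. PSPH (12.8 ± 1.03) and DDIT3 (11.4 ± 0.94) came next, with neighbouring ranges of 12.1 to 14.0 and 10.3 to 12.01 RPKM. SESN2 (4.57 ± 0.003), CHAC1 (3.61 ± 0.21) and TRIB3 (2.61 ± 0.14) were lower, and ASNS was lowest at 0.50 ± 0.09 RPKM. The counted length of PHGDH was 9217 bases, the longest of the 10, and a long counted length lowers the value per length. With shTRPS1#1 the libraries of SESN2 (4.68 to 5.13 RPKM) and CHAC1 (4.56 to 5.20 RPKM) overlapped.

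**Figure D2:**
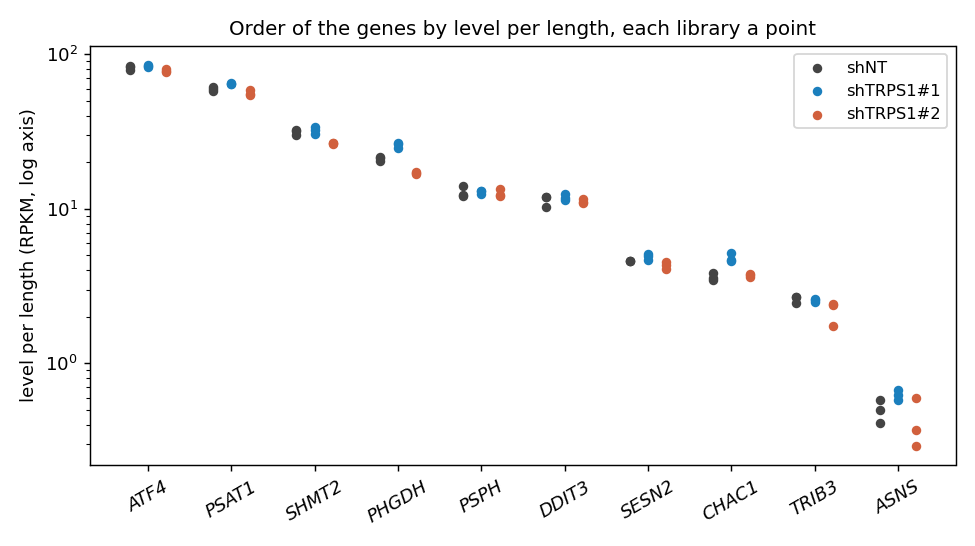
Level per length (RPKM, log axis) of each gene, ordered by its mean in shNT, with a point for each of the 9 libraries coloured by group. ATF4 and PSAT1 lead and ASNS is lowest in all groups.

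The promoter letters of 4 genes are shown because CHAC1 and ASNS carry the composite letters that ATF4 and C/EBP factors bind, whereas PHGDH and PSAT1 are the serine synthesis genes that were called. Of the 10 genes, 8 matched the RefSeq promoter table (GRCh38.p14); PSPH and SHMT2 did not. The letters TGATGNAA, searched on both strands from 250 bases before to 50 bases after the start, were found in 2 of these 8 genes, and in 4.46% of all 27305 genes in the table. ASNS has 2 starts in the table, and the letters began 68 bases before the upstream one as TGATGAAA and were not in the window of the other, while in CHAC1 they lay on the other strand as TTGCATCA, 209 bases before the start. The starts are those of RefSeq. The windows of CHAC1 and PHGDH lie inside the gene spans given for them below, and starts further upstream in those spans were not searched. Each sequence below gives the 250 bases before the start (the upstream one for ASNS), 5′ to 3′ on the gene's strand, with these letters in capitals.
CHAC1, chr15:40953221-40953470, plus strand: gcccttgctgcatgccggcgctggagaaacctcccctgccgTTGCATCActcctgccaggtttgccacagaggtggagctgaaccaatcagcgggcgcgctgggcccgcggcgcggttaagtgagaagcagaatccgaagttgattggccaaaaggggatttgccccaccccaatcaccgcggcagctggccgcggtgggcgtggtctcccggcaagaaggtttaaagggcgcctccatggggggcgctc
ASNS, chr7:97872409-97872658, minus strand: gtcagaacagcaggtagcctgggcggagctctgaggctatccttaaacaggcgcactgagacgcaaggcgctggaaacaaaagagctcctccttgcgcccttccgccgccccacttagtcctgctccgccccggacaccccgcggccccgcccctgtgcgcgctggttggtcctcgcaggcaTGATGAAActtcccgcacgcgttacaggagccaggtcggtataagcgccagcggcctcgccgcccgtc
PHGDH, chr1:119711684-119711933, plus strand: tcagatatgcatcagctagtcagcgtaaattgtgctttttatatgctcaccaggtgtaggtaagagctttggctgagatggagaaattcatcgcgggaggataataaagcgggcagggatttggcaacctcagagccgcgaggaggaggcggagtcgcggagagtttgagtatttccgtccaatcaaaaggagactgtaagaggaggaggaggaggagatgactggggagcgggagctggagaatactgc
PSAT1, chr9:78296875-78297124, plus strand: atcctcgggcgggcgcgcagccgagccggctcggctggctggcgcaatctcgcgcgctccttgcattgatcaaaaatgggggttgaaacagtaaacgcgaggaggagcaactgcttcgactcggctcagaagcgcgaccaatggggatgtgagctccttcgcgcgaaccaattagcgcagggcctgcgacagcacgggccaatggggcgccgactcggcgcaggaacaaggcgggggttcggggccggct
A match is a description of the letters and not a measured site, and no match says only that these letters are not in the window.

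ATF4 mRNA itself differed by at most 0.11 on the log2 scale between groups. ATF4 (ENSG00000128272, a protein-coding gene on chromosome 22, 39519695 to 39522685, plus strand, GRCh38) was at 199, 210 and 208 CPM with shNT, at 208, 211 and 216 CPM with shTRPS1#1, and at 202, 194 and 194 CPM with shTRPS1#2. The libraries of each hairpin overlapped those of shNT, but those of shTRPS1#2 all lay below those of shTRPS1#1. Neither hairpin was called against shNT, with log2 fold changes of 0.04 (interval -0.02 to 0.11) and -0.06 (-0.13 to 0.003). The difference between the hairpins was called at -0.11 ± 0.03 (SE; edgeR adjusted p = 0.017). This call was lost in 5 of the 17 alternatives, where the adjusted p ran up to 0.116. ATF4 protein was not analysed here.

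DDIT3 (CHOP), a factor that ATF4 induces and that promotes cell death under lasting stress, was not called in any comparison. DDIT3 (ENSG00000175197, chromosome 12, 57516588 to 57521737, minus strand) was at 13.5, 15.6 and 15.6 CPM with shNT, at 15.6, 14.998 and 16.5 CPM with shTRPS1#1, and at 14.4, 15.1 and 14.2 CPM with shTRPS1#2. All 3 groups overlapped. The direct comparison of the hairpins gave -0.11, with an interval of -0.25 to 0.03. In GENCODE 29, 355 bases of its exons lie on exons of MARS1 on the opposite strand, a gene with 5003 counts per library on average against 339 for DDIT3. The strand setting of the counting is not given in the sources used here, so reads from this stretch cannot be told apart.

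TRIB3, a pseudokinase that ATF4 induces and that restrains ATF4 in turn, was not called either. TRIB3 (ENSG00000101255, chromosome 20, 362835 to 397559, plus strand) was at 8.16, 7.38 and 8.18 CPM with shNT, at 7.84, 7.93 and 7.62 CPM with shTRPS1#1, and at 7.21, 7.37 and 5.24 CPM with shTRPS1#2. The shTRPS1#2 libraries lay just below all the others, and replicate 3 was the lowest of them. The log2 fold change with shTRPS1#2 was -0.26 ± 0.10 (edgeR adjusted p = 0.0748). It passed the threshold without shTRPS1#2 replicate 1 or replicate 2 (adjusted p = 0.0466 and 0.0385), and over all 17 alternatives the adjusted p ran from 0.0385 to 0.546.

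CHAC1, an enzyme that degrades glutathione and is among the most responsive ATF4 targets, rose with shTRPS1#1 and was lower with shTRPS1#2 than with shTRPS1#1. CHAC1 (ENSG00000128965, chromosome 15, 40952962 to 40956519, plus strand) was at 7.28, 7.03 and 7.91 CPM with shNT, at 10.8, 9.59 and 9.44 CPM with shTRPS1#1, and at 7.58, 7.82 and 7.42 CPM with shTRPS1#2. All 3 shTRPS1#1 libraries lay above the other 6, which overlapped each other. The log2 fold change was 0.42 ± 0.09 with shTRPS1#1 (edgeR adjusted p = 0.00044), that is 134% of the shNT level, and 0.04 with shTRPS1#2 (interval -0.15 to 0.22). Relative to shTRPS1#1, shTRPS1#2 was at -0.38 ± 0.09 (edgeR adjusted p = 0.00109).

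SESN2, a sestrin that restrains the growth kinase mTORC1 when amino acids are short, differed only between the hairpins. SESN2 (ENSG00000130766, chromosome 1, 28259527 to 28282491, plus strand) was at 15.8, 15.7 and 15.9 CPM with shNT, at 17.3, 16.3 and 17.9 CPM with shTRPS1#1, and at 15.7, 15.05 and 14.1 CPM with shTRPS1#2. The groups did not overlap, with shNT between the hairpins, but libraries of 27.4% and 31.8% of all genes do not overlap between shNT and shTRPS1#1 or shTRPS1#2. Neither comparison with shNT was called (log2 fold changes 0.12 ± 0.07 and -0.08 ± 0.07, edgeR adjusted p = 0.29 and 0.465). The direct difference of -0.20 ± 0.07 was called (edgeR adjusted p = 0.0292), but not with DESeq2 (adjusted p = 0.101), without the count filter (0.066) or without shTRPS1#1 replicate 1 or 3 or shTRPS1#2 replicate 2 or 3 (0.074 to 0.157).

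ASNS, which makes asparagine and is the classic target of the amino acid response, was counted at a very low level in all libraries. ASNS (ENSG00000070669, chromosome 7, 97852118 to 97872542, minus strand) had 65, 55 and 46 counts with shNT, 64, 68 and 77 counts with shTRPS1#1, and 40, 65 and 32 counts with shTRPS1#2. Replicate 2 of shTRPS1#2 stood with the other groups and the other 2 libraries lay below all of them. In GENCODE 29, 1683 of the 1752 coding bases of ASNS also lie in exons of AC079781.5, a transcript on the same strand with 13.8 counts per library on average. The deposited length of ASNS is 4896 bases and its exons span 4455 bases in GENCODE 29, so the annotation used for counting differed there and its overlaps may differ too. How reads falling on both genes were assigned is not given in the sources used here, and what share of ASNS mRNA was counted was not tested. The pseudogenes ASNSP3 and ASNSP1 held 11.7% and 6.05% as many counts as ASNS. Relative to shTRPS1#1, shTRPS1#2 was at -0.59 ± 0.18 (edgeR adjusted p = 0.0153), and it was not called with DESeq2 (0.0621), in limma on RPKM (0.202 and 0.203), or without shTRPS1#1 replicate 3, shTRPS1#2 replicate 1 or shTRPS1#2 replicate 3.

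PHGDH, which catalyses the first and rate-setting step of serine synthesis, moved most clearly, up with shTRPS1#1 and down with shTRPS1#2. PHGDH (ENSG00000092621, chromosome 1, 119648411 to 119744226, plus strand) was at 188, 198 and 198 CPM with shNT, at 245, 228 and 249 CPM with shTRPS1#1, and at 160, 157 and 153 CPM with shTRPS1#2. The groups did not overlap, and every shTRPS1#1 library lay above and every shTRPS1#2 library below all controls. The log2 fold change was 0.31 ± 0.04 for shTRPS1#1 (edgeR adjusted p = 1.42e-09) and -0.32 ± 0.04 for shTRPS1#2 (1.24e-09), that is 124% and 80.4% of the shNT level. The direct comparison of the hairpins gave -0.62 ± 0.04 (edgeR adjusted p = 2.19e-19), which ranked 22 of 17014 genes by p-value and 645 by size. Over the 17 alternatives this difference stayed between -0.66 and -0.59.

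PSAT1, the aminotransferase of the second step, moved the same way by less. PSAT1 (ENSG00000135069, chromosome 9, 78297143 to 78330093, plus strand) was at 129, 134 and 131 CPM with shNT, at 143, 142 and 146 CPM with shTRPS1#1, and at 122, 120 and 128 CPM with shTRPS1#2. The groups did not overlap, although the highest shTRPS1#2 library (128.3 CPM) and the lowest shNT library (128.6 CPM) were close. It rose with shTRPS1#1 by 0.13 ± 0.04 on the log2 scale (edgeR adjusted p = 0.00764; 0.0516 without shTRPS1#1 replicate 3). With shTRPS1#2 it was at -0.09 ± 0.04 (edgeR adjusted p = 0.0868; 0.0346 without shTRPS1#2 replicate 3). The direct comparison of the hairpins gave -0.22 ± 0.04 (edgeR adjusted p = 5.34e-06).

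PSPH, the phosphatase of the last step, was not called in any comparison. PSPH (ENSG00000146733, chromosome 7, 56011051 to 56051604, minus strand) was at 33.5, 38.4 and 34.2 CPM with shNT, at 36.3, 34.8 and 36.4 CPM with shTRPS1#1, and at 33.8, 33.4 and 37.0 CPM with shTRPS1#2. All 3 groups overlapped. The log2 fold changes were 0.02 and -0.02, and the difference between the hairpins was -0.04 with an interval of -0.15 to 0.06, which lies outside the interval of PHGDH (-0.69 to -0.55). Whether PSPH and PHGDH differ in their response was not tested beyond these intervals.

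SHMT2, which makes glycine from serine, fell with shTRPS1#2, below both shNT and shTRPS1#1. SHMT2 (ENSG00000182199, chromosome 12, 57229327 to 57234935, plus strand) was at 138, 147 and 148 CPM with shNT, at 157, 141 and 149 CPM with shTRPS1#1, and at 122, 122 and 119 CPM with shTRPS1#2. The shTRPS1#2 libraries lay below the other 6, which overlapped. The log2 fold change was -0.25 ± 0.04 for shTRPS1#2 (edgeR adjusted p = 8.3e-07) and 0.05 for shTRPS1#1 (interval -0.03 to 0.12). The direct comparison of the hairpins gave -0.30 ± 0.04 (edgeR adjusted p = 1.6e-08).

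**Figure D3:**
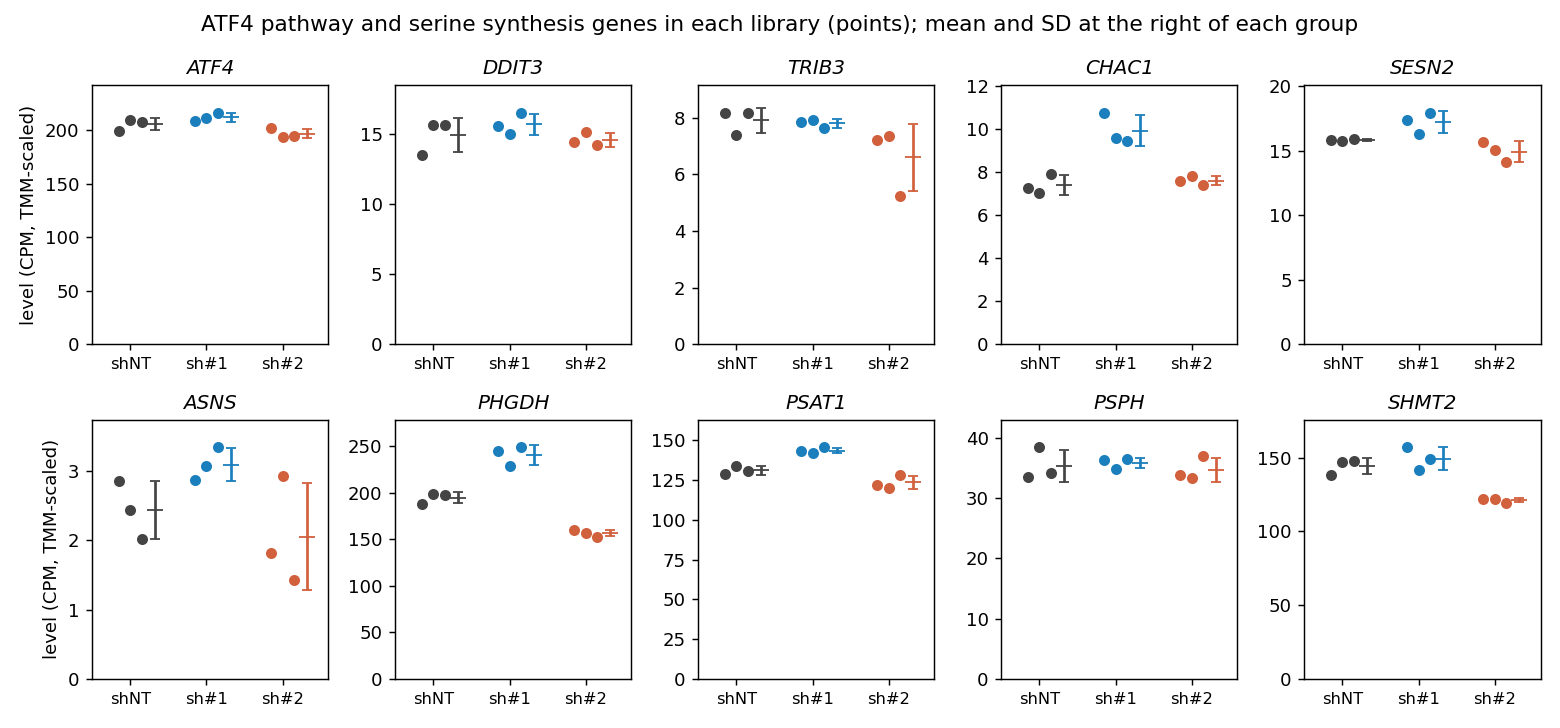
Level of each gene (CPM scaled with TMM factors, vertical axes from 0) in the 3 libraries of shNT, shTRPS1#1 (sh#1) and shTRPS1#2 (sh#2), with the mean and SD beside the points. For PHGDH the groups separate in the order shTRPS1#1, shNT, shTRPS1#2, whereas for PSPH and DDIT3 they overlap.

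The amino acid transporters, many of them ATF4 targets, split the same way. Of 10 amino acid transporters, 6 rose and 0 fell with shTRPS1#1, 0 rose and 5 fell with shTRPS1#2, and 7 were lower and 0 higher with shTRPS1#2 than with shTRPS1#1. These are 60%, 50% and 70% of the list, against 13.4%, 18.9% and 19.6% of all genes. The cystine transporter SLC7A11 was at 12.7 ± 0.44, 16.7 ± 1.24 and 10.8 ± 0.75 CPM with shNT, shTRPS1#1 and shTRPS1#2 (difference between the hairpins -0.63 ± 0.08, edgeR adjusted p = 5.48e-09). The arginine and lysine transporter SLC7A1 rose with shTRPS1#1 (0.40 ± 0.05), and its log2 fold change with shTRPS1#2 was 0.05 ± 0.05. The glycine transporter SLC6A9 rose with shTRPS1#1 as well (0.67 ± 0.12), and was at -0.20 ± 0.13 with shTRPS1#2. SLC3A2, the heavy chain that SLC7A11 pairs with, rose by 0.12 ± 0.04 with shTRPS1#1 and changed by -0.20 ± 0.04 with shTRPS1#2, and the glutamine transporter SLC1A5 fell with shTRPS1#2 (-0.22 ± 0.04). The median of the transporters was 0.15 with shTRPS1#1, -0.20 with shTRPS1#2 and -0.33 between the hairpins. The 5 calls with shTRPS1#2 became 3 in limma or when leaving out shNT replicate 3 or shTRPS1#2 replicate 3.

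Genes of tRNA charging moved by small amounts. Of 12 cytosolic aminoacyl-tRNA synthetases, 3 rose and 0 fell with shTRPS1#1, 0 rose and 3 fell with shTRPS1#2, and 9 were lower and 0 higher in the direct comparison, with a median difference of -0.12. The 25% called in each comparison with shNT stands against 13.4% and 18.9% of all genes, and the 75% called between the hairpins against 19.6%. The count with shTRPS1#1 was 1 without shNT replicate 2, without shTRPS1#1 replicate 3 and in limma, and that with shTRPS1#2 was 1 without shTRPS1#2 replicate 1 or 3. The isoleucine enzyme IARS1 (0.14 ± 0.03) and the tryptophan enzyme WARS1 (0.11 ± 0.04) rose with shTRPS1#1. The tyrosine enzyme YARS1 (-0.14 ± 0.03) and the alanine enzyme AARS1 (-0.11 ± 0.03) fell with shTRPS1#2. The cysteine enzyme CARS1 rose with shTRPS1#1 (0.12 ± 0.04) and fell with shTRPS1#2 (-0.13 ± 0.04). Of the 9 differences called between the hairpins, only that of CARS1 (-0.25 ± 0.04) reached 0.2 in size on the log2 scale.

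Among 22 further ATF4 targets, 21 were tested, and the called genes went in both directions. With shTRPS1#1, 5 rose and 1 fell, with shTRPS1#2, 1 rose and 8 fell, and in the direct comparison 13 were lower and 1 higher with shTRPS1#2. These are 28.6%, 42.9% and 66.7% of the genes tested in the list, against 13.4%, 18.9% and 19.6% of all genes. With shTRPS1#1, the 5 higher and 1 lower genes became 3 calls in limma, with either pseudocount. The stress-induced chromatin protein NUPR1 was at 3.87 ± 0.20 CPM with shNT, 6.21 ± 0.08 CPM with shTRPS1#1 and 3.10 ± 0.22 CPM with shTRPS1#2, a difference of -1.003 ± 0.12 from shTRPS1#1 to shTRPS1#2 (edgeR adjusted p = 4.76e-09). The mTORC1 inhibitor DDIT4 had a log2 fold change of -0.03 ± 0.05 with shTRPS1#1 and fell with shTRPS1#2, where it was -0.40 ± 0.05. The secreted glycoprotein STC2 also fell with shTRPS1#2 (-0.16 ± 0.03). TXNIP, which binds thioredoxin and limits glucose uptake, fell with both hairpins (-0.21 ± 0.05 and -0.56 ± 0.05). The related factor ATF5 went the other way, with 28.4 ± 0.09 CPM in shNT, 29.4 ± 1.6 with shTRPS1#1 and 36.8 ± 2.33 with shTRPS1#2, where it rose by 0.37 ± 0.05 (edgeR adjusted p = 5.23e-07).

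A list of 25 genes, of which 23 were tested, covers the folate cycle, which takes up the unit that SHMT2 releases, and also the methionine cycle, glycine cleavage and other uses of serine. With shTRPS1#1, 4 rose and 0 fell, with shTRPS1#2, 2 rose and 5 fell, and in the direct comparison 6 were lower and 1 higher. These are 17.4%, 30.4% and 30.4% of the list, against 13.4%, 18.9% and 19.6% of all genes, so the share with shTRPS1#1 is near the background. MTHFD2, the mitochondrial enzyme next to SHMT2 and a known ATF4 target, was at 129 ± 4.01 CPM with shNT, 148 ± 2.08 with shTRPS1#1 and 91.2 ± 4.46 with shTRPS1#2. It rose by 0.20 ± 0.04 and fell by 0.50 ± 0.04 on the log2 scale (edgeR adjusted p = 3.97e-05 and 5.74e-15), and differed by -0.70 ± 0.04 between the hairpins. ALDH1L2, which oxidises mitochondrial formyl-folate, did likewise (0.27 ± 0.05 and -0.18 ± 0.05). MTHFD1L, the mitochondrial enzyme that releases formate, instead rose with both hairpins (0.26 ± 0.04 and 0.29 ± 0.04), and its difference between them was 0.02 ± 0.04 (edgeR adjusted p = 0.769). TYMS, the thymidylate synthase of dividing cells, fell with shTRPS1#2 (-0.43 ± 0.04), and MTHFD2L rose (0.33 ± 0.08).

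**Figure D4:**
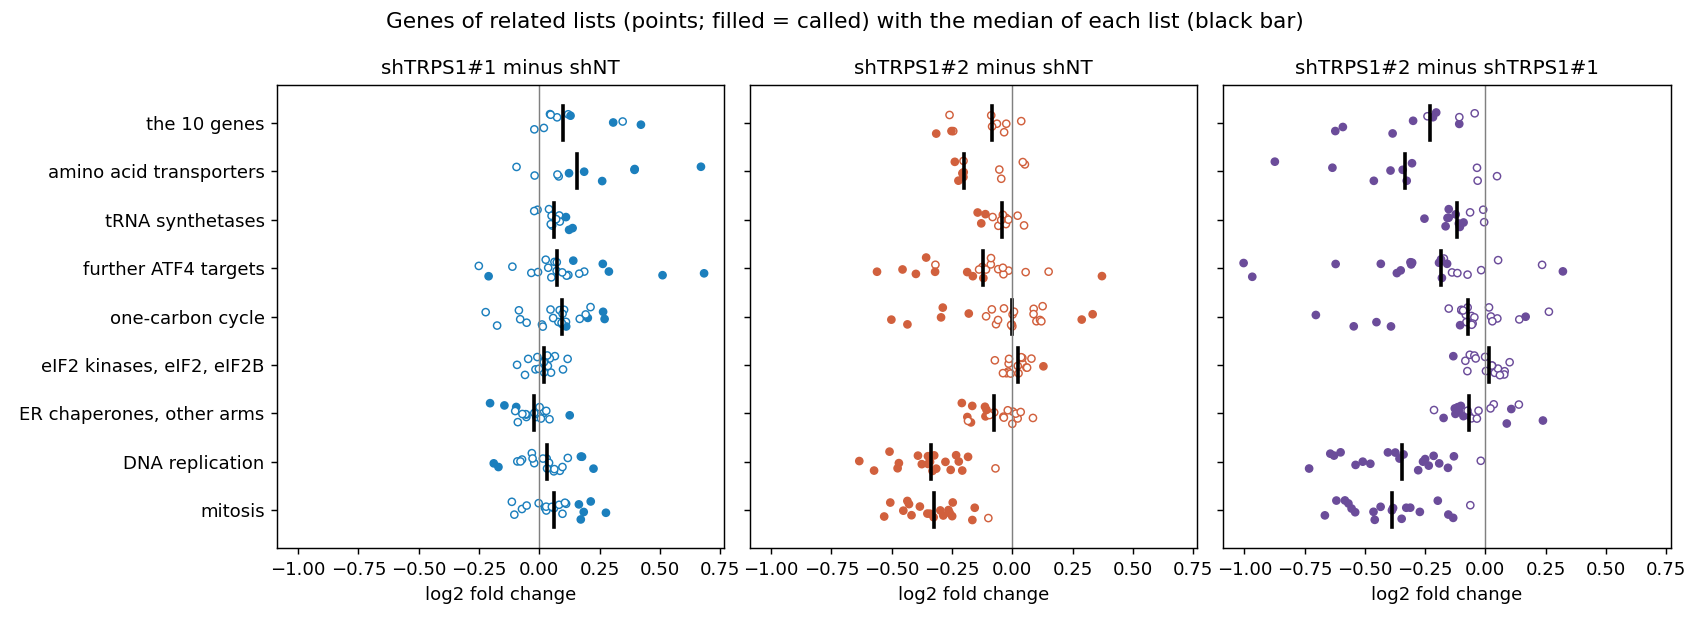
Log2 fold change of every tested gene of each list (points, filled where called) in the 3 comparisons, with the list's median as a black bar. The medians of the amino acid transporters lie at 0.15, -0.20 and -0.33, those of the eIF2 kinases, eIF2 and eIF2B near 0, and DNA replication and mitosis genes lie below 0 in both comparisons that involve shTRPS1#2.

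The upstream part of the response showed few calls. Of 16 genes for eIF2 kinases, eIF2 and eIF2B subunits and their partners, 0 rose and 0 fell with shTRPS1#1 in edgeR, and 1 rose with shTRPS1#2, the amino acid sensor kinase EIF2AK4 (0.13 ± 0.04, edgeR adjusted p = 0.00928; lost without shNT replicate 2). At an unadjusted p under 0.05, 2 of the 16 passed with shTRPS1#1, and DESeq2 and limma also called 0. Without shTRPS1#2 replicate 3, edgeR called 1 with shTRPS1#1. Between the hairpins, 5 of the 16 passed at an unadjusted p under 0.05 and 1 was called, the endoplasmic reticulum stress kinase EIF2AK3 (PERK), named here after its values were seen (-0.13 ± 0.04, edgeR adjusted p = 0.0221). The list had 0 calls there with DESeq2, with all genes kept, or when leaving out shTRPS1#1 replicate 3, shTRPS1#2 replicate 2 or shTRPS1#2 replicate 3. With upper-quartile factors it had 2 calls there, 1 higher and 1 lower. The edgeR calls in the 3 comparisons are 0%, 6.25% and 6.25% of the list, against 13.4%, 18.9% and 19.6% of all genes. Among 19 endoplasmic reticulum chaperones and genes of the ATF6 and XBP1 arms, shTRPS1#1 gave 1 higher and 3 lower genes, and shTRPS1#2 gave 0 higher and 7 lower genes. These 4 calls became 2 without shTRPS1#1 replicate 3, and the 7 became 4 without shNT replicate 2 or shTRPS1#2 replicate 2. The calcium-binding chaperone CALR fell with both (-0.10 ± 0.03 and -0.19 ± 0.03), PDIA4 (-0.17 ± 0.03) and the secreted factor MANF (-0.21 ± 0.04) fell with shTRPS1#2, and EDEM1 (-0.20 ± 0.04) and DNAJB9 (-0.14 ± 0.04) fell and XBP1 rose (0.13 ± 0.04) with shTRPS1#1. In the direct comparison 3 were higher and 7 lower, and the 10 calls dropped to 2 without shTRPS1#1 replicate 3, to 3 without shTRPS1#2 replicate 2, and to 4 without replicate 1 of either hairpin. The calls in the 3 comparisons are 21.1%, 36.8% and 52.6% of these 19 genes, against 13.4%, 18.9% and 19.6% of all genes. Requiring a log2 change of 0.2 left 1 call in each comparison.

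Genes of DNA replication and mitosis fell with shTRPS1#2, as PHGDH and SHMT2 did. Under shTRPS1#2, 19 of 20 DNA replication genes fell and 0 rose (median -0.34), and 18 of 19 tested mitosis genes fell and 0 rose (median -0.33). That is 95% and 94.7% of the lists, against 9.87% of all genes lower. Between the hairpins, 19 and 18 were lower with shTRPS1#2 and 0 higher, against 10.7% of all genes lower. Under shTRPS1#1 the same lists had 2 higher and 2 lower genes, and 5 higher and 0 lower genes. These are 20% and 26.3% of the lists, against 13.4% of all genes. The 5 mitosis genes became 3 with DESeq2 or without shNT replicate 1, shNT replicate 2 or shTRPS1#1 replicate 1, and 2 in limma or without shTRPS1#1 replicate 3. The ribonucleotide reductase subunit RRM2 (-0.63 ± 0.04) and the proliferation marker MKI67 (-0.34 ± 0.04) fell with shTRPS1#2, and MKI67 rose with shTRPS1#1 (0.28 ± 0.04). The summed level of the replication list was 1862 to 2011 CPM with shNT, 1862 to 2018 CPM with shTRPS1#1 and 1549 to 1594 CPM with shTRPS1#2. No gene of either list was at 0. The part of proliferation in the changes of the serine and ATF4 genes was not tested.

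The genes most like ATF4 and the serine enzymes over the 9 libraries were found by Pearson's r of log2 CPM, given as a description, since all genes share the same libraries and groups. Closest to ATF4 were MBD2, RPSA, SEPTIN4, RNF227 and ZFAS1 (r from 0.95 to 0.97). Closest to the mean of PHGDH, PSAT1, PSPH and SHMT2 were EIF4EBP1, the translation repressor 4E-BP1 and itself one of the further ATF4 targets (r = 0.98), and CDCA5, WDR76 and EXO1 were also among the closest (r = 0.97). EIF4EBP1 was at -0.19 ± 0.04 with shTRPS1#2, a call, and at 0.12 ± 0.04 with shTRPS1#1 (edgeR adjusted p = 0.0566). CDCA5 and EXO1, which act in cell division and DNA repair, rose with shTRPS1#1 (0.17 ± 0.05 and 0.19 ± 0.06) and fell with shTRPS1#2 (-0.29 ± 0.05 and -0.34 ± 0.07).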

How the data were processed

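RNA was sequenced from 180 ng of RNA per library after poly(A) selection, in 3 libraries of each of 3 groups. Per the submitters' processing notes, the tools were bcl2fastq 2.20.0.422, STAR 2.7.2b and featureCounts 1.6.5 on GRCh38; for the strand setting, annotation release and multi-mapping reads, nothing is stated. The authors deposited raw counts per gene and RPKM values, and the RPKM values equal the counts divided by gene length and library total. Identifiers without a symbol (319) held 0.107% of counts. Libraries held 21965744 to 23289062 counts, and the counts of replicates differed by more than sampling noise in every group.

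Counts were fitted with edgeR 4.0.16 in R 4.3.3 (quasi-likelihood test, TMM factors, filterByExpr with a minimum count of 10, all 9 libraries, 6 residual degrees of freedom). Benjamini-Hochberg adjustment was made over the 17014 genes tested. In simulated data, 80% of 50 genes changed by 1.25-fold and 100% of 50 changed by 4-fold were recovered, with 9 false calls. Changes below 1.25-fold, which include many of those called here, were not simulated. Standard errors are the log2 fold change over the square root of F. Alternatives were RLE and upper-quartile scaling, DESeq2 1.42.0, no count filter, limma 3.58.1 on log2(RPKM + 0.5) and log2(RPKM + 0.1), a fit of each pair of groups, a replicate block, a fold threshold of 0.2 and leaving out each library. The genes, lists and tests were chosen with earlier results of these data known. From each list, the rule names up to 5 genes called against shNT with the smallest adjusted p-values and the first called gene of opposite direction, of which the text gives fewer for the proliferation and muscle lists; likeness was ranked by Pearson's r, and 1 gene of that ranking is not reported here. Promoter sequences are from RefSeq, GRCh38.p14.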

Additional observations from a re-analysis of the deposited data

Results flagged for a closer look

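The following genes are listed because their response differed between the hairpins by a test of the difference itself, in edgeR's quasi-likelihood fit with adjustment over all 17014 genes. The log2 difference, shTRPS1#2 minus shTRPS1#1, was -0.62 for PHGDH, -0.59 for ASNS, -0.38 for CHAC1, -0.3 for SHMT2, -0.22 for PSAT1, -0.2 for SESN2 and -0.11 for ATF4. The calls of ASNS, SESN2 and ATF4 were less stable, and held in 11, 11 and 12 of the 17 alternatives. The libraries of ASNS overlapped between the hairpins, and those of the other 6 genes did not. Over all genes tested, the libraries of 32.4% did not overlap between the hairpins, and these genes were listed because they were called. TRPS1 itself was not called in this comparison (-0.01). Groups of 3 libraries are too small for the check on single samples that stand apart.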

How the results depend on the processing

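The replicate numbers are shared across groups, and the labels do not say what they mark. Deviations of same-numbered libraries from their group means correlated at -0.0161 to 0.0476, and those of other pairs at -0.0558 to 0.0423. Correlations near 0 over all genes cannot settle whether the libraries are paired. With the replicate number as a block, 2505 genes were called between shTRPS1#1 and shNT, 3434 between shTRPS1#2 and shNT and 3583 between the hairpins, against 2285, 3213 and 3330 without it. Requiring a log2 change of 0.2 left 1426, 1937 and 1937 genes. Leaving out 1 library gave 1789 to 2478, 2498 to 3336 and 2458 to 3519 genes, and 2 to 3, 2 to 4 and 4 to 7 of the 10 ATF4 and serine genes. The 4 in shTRPS1#2 minus shNT came without shTRPS1#2 replicate 2, where ASNS (adjusted p = 0.0496) and TRIB3 joined.

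Among values of single genes, 480 kept their direction and side of the threshold, 18 lost a call and 4 gained one. Direction reversed in 8, all in uncalled comparisons with shNT. TRIB3 with shTRPS1#1 was 0.0025 without shNT replicate 1 and 0.0041 without shNT replicate 3 (range -0.0679 to 0.0041 without 1 library), and PSPH was -0.0185 and -0.0052 without the same libraries (range -0.0185 to 0.0815). DDIT3 with shTRPS1#2 was 0.0037 without shNT replicate 2 and 0.0 without shNT replicate 3 (range -0.1005 to 0.0037), and PSPH was 0.0419 without shNT replicate 2 and 0.0078 without shTRPS1#2 replicate 2 (range -0.0695 to 0.0419). The cause was not tested. Of the counts over lists, 54 moved by over 1.5 times and 432 did not. Depth limits ASNS most, with 32 to 77 counts per library.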
